A study of Mus musculus with 6 samples.

Results

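The 35 genes described here encode enzymes and regulators that build fatty acids, glycerolipids and cholesterol. They were chosen by name, as genes of these pathways, with earlier results of these data known. They are 35 of the 32285 gene rows in the organoid and repetitive-dose count tables, and of 30830 and 30828 rows in the single-dose tables, and all 35 were found in each of the 6 libraries. By role, 3 genes belong to SREBP control (Srebf1, Srebf2, Insig1), 5 to the supply of acetyl-CoA and NADPH and the making of palmitate (Acly, Acss2, Acaca, Fasn, Me1), 3 to fatty acid elongation (Elovl1, Elovl5, Elovl6), 4 to desaturation (Scd1, Scd2, Fads1, Fads2) and 3 to glycerolipid assembly (Gpam, Agpat2, Lpin1). Another 6 encode steps of the mevalonate pathway (Hmgcs1, Mvk, Pmvk, Mvd, Idi1, Fdps), 10 the steps from squalene synthesis to cholesterol (Fdft1, Sqle, Lss, Cyp51, Msmo1, Nsdhl, Hsd17b7, Ebp, Sc5d, Dhcr7), and Stard4 encodes a sterol carrier. Below, the 15 genes from Acly to Lpin1 are called the fatty acid arm, and the 16 mevalonate and squalene-to-cholesterol genes the cholesterol arm.

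Transcription of many of these genes is driven by the sterol regulatory element-binding proteins (SREBPs), which Srebf1 and Srebf2 encode, and which are held in the endoplasmic reticulum by INSIG proteins when sterols are plentiful. SREBP-1 acts mostly on fatty acid genes and SREBP-2 mostly on cholesterol genes. In the lung, alveolar epithelial type 2 cells (AEC2s) make fatty acids and phospholipids for surfactant, a lipid-rich film that lowers surface tension, while lipofibroblasts (LipoFBs) store neutral lipid in droplets beside them.

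The study used single-cell RNA-Seq of Pdgfra fibroblasts (FBs) from normal and bleomycin-injured mouse lung, and of organoids grown with them. FBs came from Pdgfra-GFP reporter mice (PDGFRa-EGFP), in which GFP marks Pdgfra-expressing cells, and were sorted by FACS as GFP+ cells. In the single-dose experiment, mice received 50 ul PBS or bleomycin oropharyngeally and lungs were taken on day 14. The amount of bleomycin reads 4 U/kg in the sample's treatment label but 2 U/kg in the protocol text. In the repetitive experiment, 3 instillations of 50 ul were given a week apart, of PBS or of bleomycin at 1 U/kg, again 1 U/kg and then 0.5 U/kg, and lungs were taken 2 weeks after the last. For the organoids (alveolospheres), tomato+ AEC2s of SpcCreER mice given tamoxifen, a line in which the recombinase is driven by the surfactant protein C promoter, were grown in Matrigel for 2 weeks with GFP+ FBs taken on day 14 from mice given PBS (normal FBs) or 2 U/kg bleomycin (fibrogenic FBs). The labels give 3 mice pooled for each library. The AEC2 donors are described alike for both organoid libraries, and the labelled difference is the treatment of the FB donors. The labels give 10 AEC2s mixed with each FB, while the study's methods give more FBs than AEC2s. Each condition is 1 library with no replicates, so no difference below was tested against the spread between mice or cultures, and intervals cover counting error only.

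The libraries held 7201081 to 238618743 unique molecular identifiers (UMIs) in 1015 to 10737 cell barcodes, and any pair of libraries shared at most 30 barcodes. Depth was uneven: the median barcode held 36841 UMIs in the organoid library with normal FBs and 4289.5 in that with fibrogenic FBs, and barcodes under 2000 UMIs made up 15.9% and 33.5% of them. The doublet caller marked 0 to 18 barcodes per library, so doublets were in effect not removed, and 608 and 3150 organoid barcodes in clusters that carried markers of both FBs and epithelium were set aside. Levels are given as CPM, the UMIs of a gene per 1000000 UMIs summed over the cells of a class, and fold changes as log2 ratios after 1 CPM was added to both levels, with the 95% counting interval of the ratio itself. A gene is counted as higher or lower where this ratio passed 2-fold, which is a rule of size and not a test. CPM was not corrected for differences between genes, so levels are compared between cell classes and libraries rather than gene against gene. Sums over genes weigh each gene by its level.

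Promoter sequence is shown for 4 genes so that both arms can be read side by side: Fasn and Elovl1, fatty acid genes with wide differences between classes below, Hmgcs1, the first mevalonate gene listed, and Hsd17b7, which was higher in PATS-like cells than in AEC2s while most of the cholesterol arm was lower. They were chosen after their values were seen. Each is the 250 bases before an annotated start in RefSeq (GRCm38.p6), printed 5′ to 3′ on the gene's own strand. Capitals mark matches on either strand to CCAAT (the box bound by NF-Y), GGGCGG (the GC box bound by Sp1) and TCACNCCAC (a sterol regulatory element). Neighbouring matches overlap in the CCAATTGG of Fasn and in the CCGCCCAAT of Elovl1.
Fasn (fatty acid synthase), chr11:120824548-120824797, minus strand: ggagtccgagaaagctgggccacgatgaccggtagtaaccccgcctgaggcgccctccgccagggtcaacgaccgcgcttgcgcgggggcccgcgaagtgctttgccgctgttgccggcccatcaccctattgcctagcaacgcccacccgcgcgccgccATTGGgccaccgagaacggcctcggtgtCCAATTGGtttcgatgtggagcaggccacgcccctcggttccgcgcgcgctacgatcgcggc
Elovl1 (elongase of long-chain fatty acids), the upstream of 2 listed starts, chr4:118427843-118428092, plus strand: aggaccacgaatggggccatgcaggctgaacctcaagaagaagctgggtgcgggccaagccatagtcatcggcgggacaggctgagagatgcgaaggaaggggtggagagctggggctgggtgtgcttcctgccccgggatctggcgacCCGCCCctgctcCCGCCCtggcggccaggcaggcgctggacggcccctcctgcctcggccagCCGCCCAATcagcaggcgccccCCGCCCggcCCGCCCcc
Hmgcs1 (HMG-CoA synthase), chr13:119690101-119690350, plus strand: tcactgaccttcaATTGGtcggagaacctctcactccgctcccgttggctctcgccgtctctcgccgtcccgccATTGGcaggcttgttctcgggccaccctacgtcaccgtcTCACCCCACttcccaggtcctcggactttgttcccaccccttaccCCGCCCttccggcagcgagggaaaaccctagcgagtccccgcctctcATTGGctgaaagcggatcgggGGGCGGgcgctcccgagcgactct
Hsd17b7 (a 3-ketosteroid reductase of sterol synthesis), chr1:169969206-169969455, minus strand: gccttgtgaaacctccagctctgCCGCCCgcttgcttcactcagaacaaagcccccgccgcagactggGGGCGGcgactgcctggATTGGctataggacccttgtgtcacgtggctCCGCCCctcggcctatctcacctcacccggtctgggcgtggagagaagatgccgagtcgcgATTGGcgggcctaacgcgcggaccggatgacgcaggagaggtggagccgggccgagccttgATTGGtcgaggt
Of the 35 genes, 28 had a listed promoter. CCAAT stood in the window of 22 of these 28 genes (78.6%), against 37.5% of all 27025 genes listed. All 13 cholesterol-arm genes with a listed promoter held it, and 6 of 12 fatty acid-arm genes did. GGGCGG was likewise present in 22 of 28 genes against 35.4% of all, in 12 of 13 and 7 of 12 genes of the 2 arms. TCACNCCAC was found in 1 of 28 genes, Hmgcs1, against 1.22% of all. A match describes these letters in this window and no more.

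In the organoids the summed fatty acid arm spanned a wider range over the cell classes than the summed cholesterol arm, mostly through Scd1 and Elovl1. Classes were named from marker genes, with the 35 genes, related lipid genes and mitochondrial genes left out of the clustering: AEC2-like cells (called AEC2s below; 1177 with normal and 1259 with fibrogenic FBs), AEC1-like cells (275 and 328), PATS-like cells, which resemble the pre-alveolar type 1 transitional state (266 and 507), cycling epithelium (205 and 101) and FBs (1928 and 2164). The 8 AEC2 markers summed to 110700 CPM in AEC2s of both libraries, to 85000 to 92460 CPM in cycling epithelium, 37920 to 38120 CPM in AEC1-like cells, 3525 to 6706 CPM in PATS-like cells and 735 to 858 CPM in FBs, with none at 0 in any class. The 9 AEC1 markers summed to 12450 and 12850 CPM in AEC1-like cells and to at most 3223 CPM elsewhere, and the 9 PATS markers to 24860 and 25980 CPM in PATS-like cells and to at most 2976 CPM elsewhere.

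With normal FBs, the 15 fatty acid genes summed to 13170 CPM in AEC2s, 8710 in cycling epithelium, 5515 in AEC1-like cells, 1665 in PATS-like cells and 1012 in FBs. With fibrogenic FBs the same sums were 14590, 8449, 5787, 1612 and 1135 CPM, so both libraries gave the same order of classes by sum. Scd1 and Elovl1 made up 7547 and 2617 CPM of the sum in AEC2s with normal FBs, and the level of the median gene gave another order. That level was 93.0 CPM in AEC2s, 78.8 in cycling epithelium, 61.7 in AEC1-like cells, 31.2 in PATS-like cells and 47.2 in FBs with normal FBs, and 84.3, 86.3, 59.4, 32.0 and 54.0 CPM with fibrogenic FBs, so that PATS-like cells lay below FBs in both. The cholesterol arm summed to 2154, 2244, 2021, 859 and 1199 CPM with normal FBs, and to 1830, 2059, 1895, 797 and 1243 CPM with fibrogenic FBs. AEC2s, cycling epithelium and AEC1-like cells thus lay close to each other in the cholesterol arm, and PATS-like cells lay lowest, below the FBs. The median cholesterol gene ran from 49.5 CPM in PATS-like to 99.1 CPM in AEC1-like cells with normal FBs, and from 47.6 to 93.0 CPM with fibrogenic FBs. All 35 genes together took 1.56% and 1.67% of the UMIs of AEC2s and 0.263% and 0.252% of those of PATS-like cells.

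**Figure D1:**
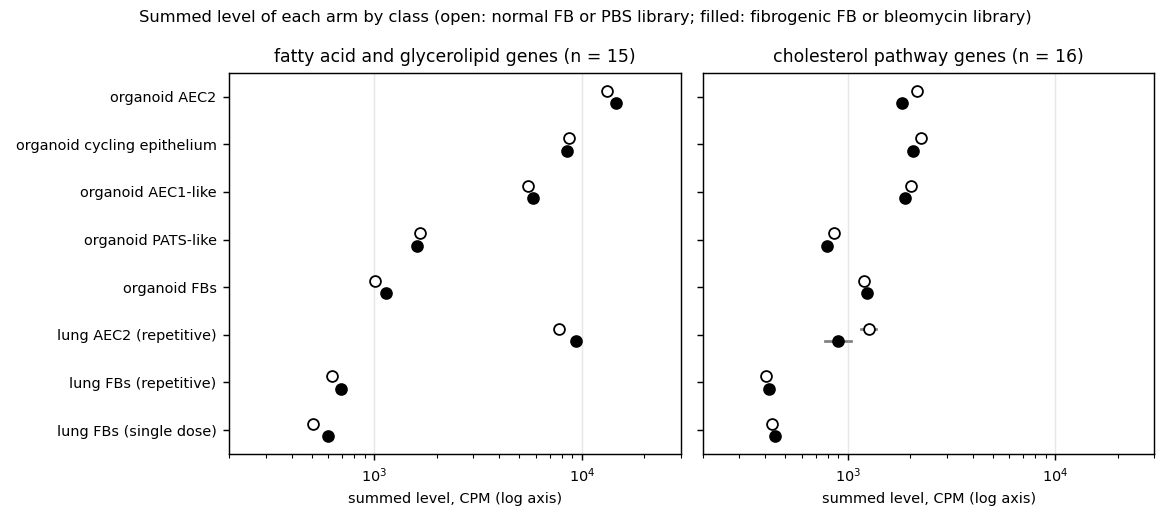
Summed level of the fatty acid arm (left) and the cholesterol arm (right) in CPM on a log axis, for each organoid class and for lung AEC2s and FBs; open points are libraries with normal FBs or PBS, filled points those with fibrogenic FBs or bleomycin, and grey lines 95% counting intervals. The fatty acid arm runs from about 13170 CPM in AEC2s to 1012 CPM in FBs with normal FBs, while the cholesterol arm spans 859 to 2244 CPM.

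Within the fatty acid arm Fasn, Scd1 and Elovl1 had wide AEC2 excesses, and with fibrogenic FBs that of Gpam exceeded that of Scd1 in both AEC1-like and PATS-like cells. Fasn, the multi-enzyme that makes palmitate, stood at 923 CPM in AEC2s, 717 in cycling epithelium, 282 in AEC1-like cells, 94.4 in PATS-like cells and 45.0 in FBs with normal FBs, and at 1260, 770, 266, 61.6 and 54.0 CPM with fibrogenic FBs. Scd1, which inserts the double bond of oleate and palmitoleate, stood at 7547, 4853, 2719, 765 and 180.2 CPM in the same order of classes with normal FBs, and at 8932, 4835, 3063, 788 and 212 CPM with fibrogenic FBs. In every class of both libraries these genes followed the order AEC2s, cycling epithelium, AEC1-like cells and PATS-like cells, with FBs lowest.

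Elovl1, which lengthens saturated and monounsaturated chains, repeated that order at 2617, 1449, 557, 177 and 76.8 CPM with normal FBs and at 2239, 1092, 518, 131 and 84.9 CPM with fibrogenic FBs. RNA of AEC2s bears on the rank of PATS-like cells above FBs: at the highest share of a surfactant transcript in a class, it would amount to 178 of the 177 CPM of Elovl1 counted in PATS-like cells with normal FBs and to 60.1% of it with fibrogenic FBs. In PATS-like cells of the 2 libraries it would likewise amount to 66.5% and 71.8% of the Fasn and 67.1% and 39.8% of the Scd1, against at most 32.6% of any of the 3 in FBs. Whether PATS-like cells themselves lay above FBs for these genes was not tested. Scd2, the desaturase paralogue of Scd1, did not follow that order: it was highest in AEC1-like cells, at 1271 and 1303 CPM against 877 and 952 CPM in AEC2s of the same libraries, and stood at 260 to 338 CPM in PATS-like cells and FBs. Scd1 and Scd2 are close paralogues, and how reads shared by them were counted is not given in the sources used here. Elovl6, the elongase that takes palmitate to stearate, was low in AEC2s and highest in FBs: it stood at 2.20 and 1.96 CPM in AEC2s, 3.82 and 0.765 CPM in AEC1-like cells, 7.26 and 7.06 CPM in cycling epithelium, 5.79 and 4.94 CPM in PATS-like cells and 31.0 and 26.2 CPM in FBs.

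**Figure D2:**
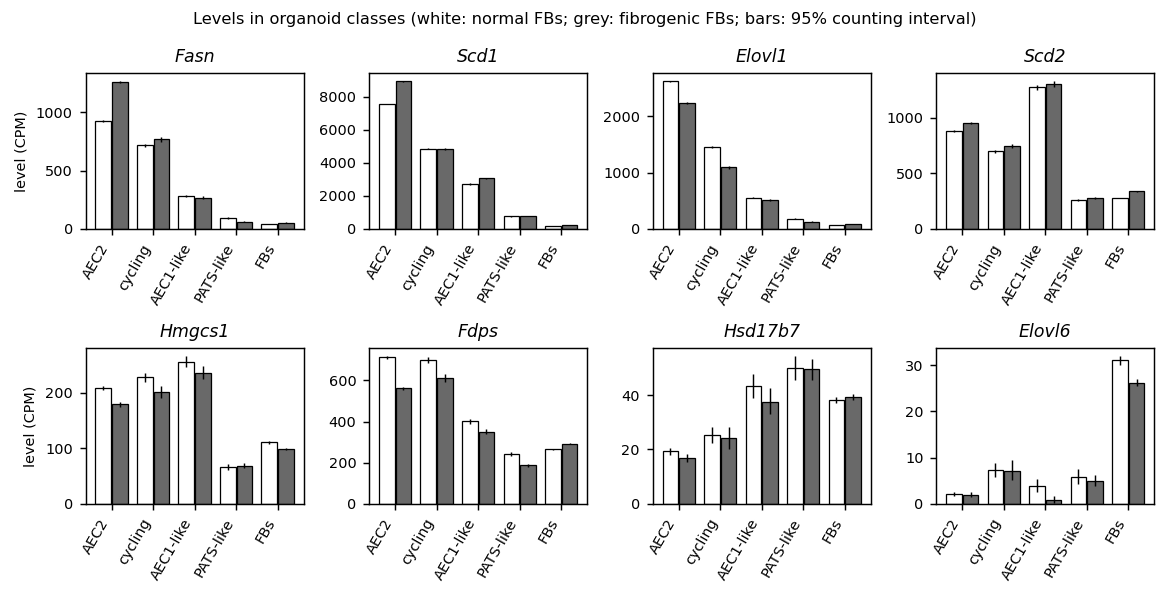
Level in CPM of 8 of the genes in 5 organoid classes (linear axes from 0, a scale for each gene); white bars are the library with normal FBs, grey bars that with fibrogenic FBs, and error bars 95% counting intervals. Fasn, Scd1 and Elovl1 fall from AEC2s to FBs, Scd2 is highest in AEC1-like cells, Hsd17b7 in PATS-like cells and Elovl6 in FBs.

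The AEC1-like cells were set against AEC2s of the same library, which asks how the program differs between these epithelial states within a culture. Fatty acid genes were mostly lower, while cholesterol genes lay on both sides of 0. The median log2 ratio of the fatty acid arm was -0.94 with normal and -1.12 with fibrogenic FBs, with 13 of 15 genes below 0 in both. That of the cholesterol arm was 0.28 and 0.30, with 11 of 16 genes above 0 in both, while the median over all genes tested was 0.13 and 0.10 and 60% and 57.3% of them lay above 0. Over all 35 genes the median was -0.07 and -0.18, since the arms lay on opposite sides of 0.

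With normal FBs 6 of the 35 genes were at least 2-fold lower in AEC1-like cells (Fasn, Scd1, Acly, Acaca, Elovl1 and Gpam; 5.98% of all 14489 genes tested), and with fibrogenic FBs 8 were, the same 6 with Acss2 and Me1 (7.24% of 14077). Fasn was 3.27-fold lower with normal FBs (log2 ratio -1.71, interval -1.77 to -1.66) and 4.71-fold lower with fibrogenic FBs (log2 ratio -2.24, interval -2.31 to -2.17). Elovl1 was 4.69- and 4.32-fold lower, and Scd1 2.77- and 2.92-fold lower. These 3 genes were the furthest below AEC2s in both libraries apart from Gpam with fibrogenic FBs.

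Acly, which cleaves citrate to cytosolic acetyl-CoA, stood at 179 and 171 CPM in AEC2s against 86.1 and 76.2 CPM in AEC1-like cells. Acaca, which makes malonyl-CoA, stood at 158 and 150.0 CPM against 61.7 and 59.4 CPM. Gpam, the mitochondrial acyltransferase that begins glycerolipid assembly, stood at 93.0 and 84.3 CPM against 42.4 and 25.9 CPM. These 3 genes thus lay at least 2-fold lower in both libraries, as Fasn did.

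Me1 (malic enzyme, a source of NADPH) and Acss2 (which makes acetyl-CoA from acetate) lay near the 2-fold limit in both libraries. Their log2 ratios were -0.99 and -0.94 with normal FBs and -1.12 and -1.14 with fibrogenic FBs, so the 2 lists differ by genes close to the limit. Agpat2 and Elovl5, which act in phosphatidic acid synthesis and polyunsaturated fatty acid elongation, had log2 ratios between -0.06 and 0.02 in both.

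In the cholesterol arm of AEC1-like cells, Hsd17b7 was 2.18- and 2.16-fold higher than in AEC2s, at 43.3 against 19.3 CPM and at 37.5 against 16.8 CPM. Ebp, the sterol isomerase, stood at 112 against 57.1 CPM with normal FBs (log2 ratio 0.96) and at 123 against 55.1 CPM with fibrogenic FBs (log2 ratio 1.15, past 2-fold). These 1 and 2 of 35 genes at least 2-fold higher compare with 9.23% and 7.37% of all genes tested, so such genes were no more frequent here than across the transcriptome. Fdft1 (squalene synthase) had log2 ratios of 0.83 and 0.84, Idi1 of 0.41 and 0.61 and Hmgcs1 of 0.30 and 0.39. The mevalonate genes Pmvk and Fdps ran against their neighbours, at -0.96 and -0.83 with normal FBs and at -0.86 and -0.67 with fibrogenic FBs, and Lss and Dhcr7 also lay below 0.

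RNA of AEC2s was measurable in AEC1-like cells, beside the values above. Sftpc, the surfactant protein C gene, stood at 33400 and 33750 CPM there, 39.1% and 39.0% of its AEC2 level. Sftpb stood at 21.1% and 16.6% of it, and Sftpa1 at 8.92% and 10.6%. At the Sftpc share, AEC2 RNA would exceed what was counted in AEC1-like cells, at 128% and 184% of the Fasn, 108% and 114% of the Scd1 and 183% and 168% of the Elovl1. Cells between the states, doublets and free RNA cannot be told apart by these values, and their part in the ratios was not tested. AEC2 RNA in another class brings its ratio over AEC2s nearer to 0, for genes on either side of 0.

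**Figure D3:**
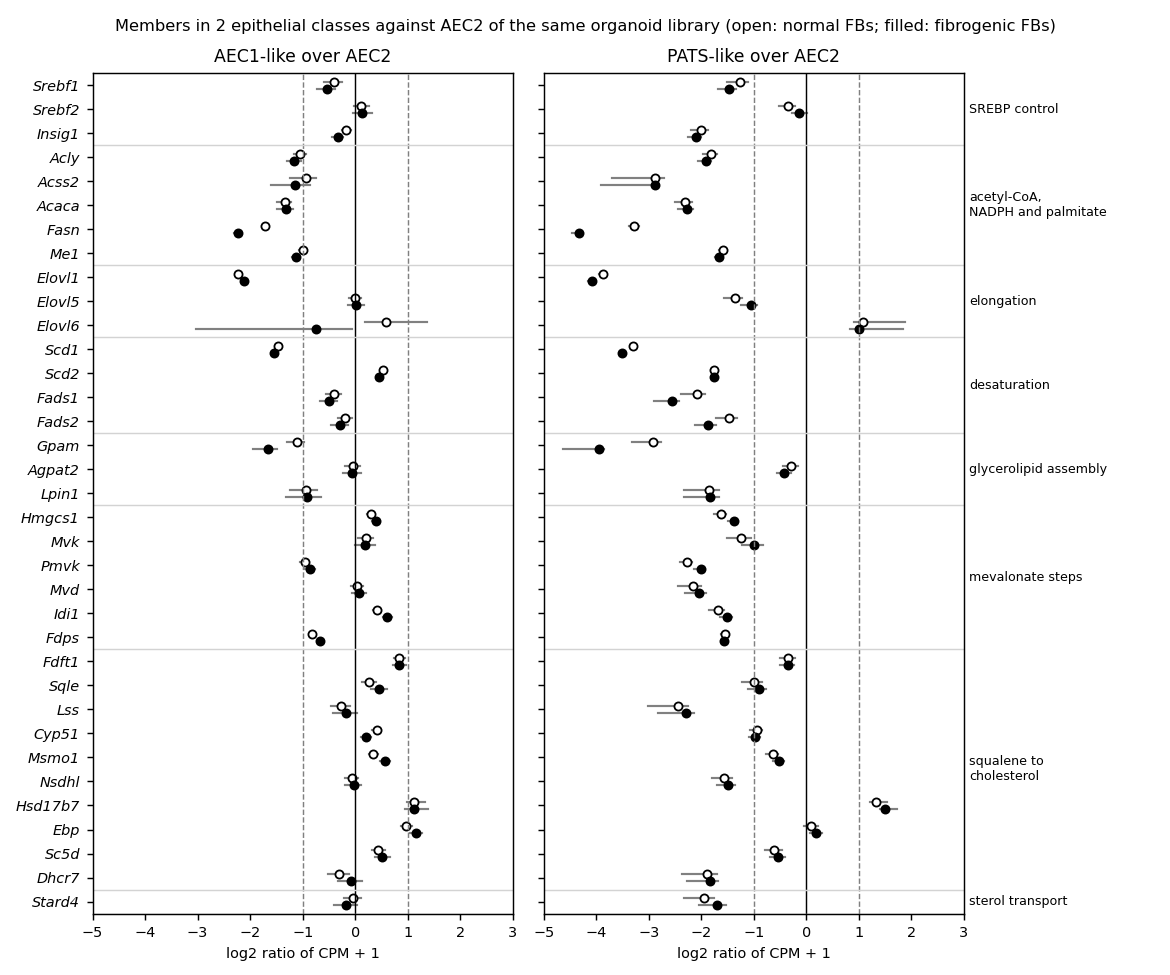
Log2 ratio of CPM + 1 for each of the 35 genes in AEC1-like (left) and PATS-like cells (right) over AEC2s of the same library, grouped by role; open points are organoids with normal FBs, filled points those with fibrogenic FBs, grey lines 95% counting intervals of the ratio, and dashed lines 2-fold. In AEC1-like cells 13 of 15 fatty acid genes lie left of 0 and 11 of 16 cholesterol genes right of it, while in PATS-like cells 32 of 35 genes lie left of 0 in both libraries.

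PATS-like cells held the lowest levels of both arms among epithelial classes. Of the 35 genes, 26 were at least 2-fold lower than in AEC2s with normal FBs (8.49% of all 14789 genes tested) and 24 with fibrogenic FBs (9.21% of 14684), and the 24 are all among the 26. The median log2 ratio over the 35 genes was -1.64 and -1.66, against 0.22 and 0.19 over all genes tested. The shift was somewhat wider in the fatty acid arm (medians -1.86 and -1.92, 14 of 15 genes below 0) than in the cholesterol arm (-1.40 and -1.19, 14 of 16 below 0). Sqle and Mvk made the difference between the 26 and the 24, Sqle at 26.1 against 53.3 CPM and at 25.5 against 48.5 CPM, and Mvk at 18.3 against 44.5 CPM and at 18.5 against 37.7 CPM.

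Elovl1 had log2 ratios of -3.88 and -4.09 with normal and fibrogenic FBs, and Scd1 was 9.85- and 11.3-fold lower and Fasn 9.69- and 20.1-fold lower. Gpam stood at 11.4 against 93.0 CPM with normal FBs and at 4.49 against 84.3 CPM with fibrogenic FBs. Acss2 stood at 3.66 and 2.32 CPM in PATS-like cells, from 36 and 31 UMIs. The fatty acid genes with the widest AEC2 excess over AEC1-like cells, Elovl1, Fasn and Scd1, also had the widest over PATS-like cells with normal FBs. With fibrogenic FBs Gpam came before Scd1 in both.

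In the cholesterol arm of PATS-like cells, Lss (lanosterol synthase) was lowest against AEC2s, at 6.30 against 38.7 CPM and at 5.76 against 32.1 CPM. Pmvk and Mvd, which act between mevalonate and isopentenyl pyrophosphate, had log2 ratios of -2.27 and -2.16 with normal FBs and -2.01 and -2.04 with fibrogenic FBs. Hmgcs1 stood at 66.6 and 68.2 CPM against 209 and 180 CPM in AEC2s. Ebp, Fdft1, Sc5d, Msmo1 and Cyp51 lay within 2-fold of AEC2s in both libraries, with Ebp at 60.7 and 62.6 CPM.

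Hsd17b7 was the cholesterol gene past 2-fold upward in PATS-like cells (Ebp also lay above 0, within 2-fold), at 49.9 and 49.4 CPM against 19.3 and 16.8 CPM in AEC2s, 2.51- and 2.83-fold higher. Elovl6 was the other member past 2-fold upward, 2.12- and 2.00-fold higher, from 57 and 66 UMIs in PATS-like cells. Elovl6 was highest in FBs, and the 8 FB markers summed to 2818 and 1906 CPM in PATS-like cells against 539 and 930 CPM in AEC2s and 69470 and 53740 CPM in FBs; the part of FB RNA in these ratios, which lie near the 2-fold limit, was not tested. These 2 of 35 genes compare with 16.4% and 14.2% of all genes tested. Among the regulators, Srebf1 was 2.41- and 2.76-fold lower and Insig1, itself a known SREBP target, 4.01- and 4.29-fold lower. Srebf2 was not past 2-fold, at 39.1 and 41.6 CPM against 50.5 and 45.7 CPM.

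Beside these values, Sftpc, Sftpb and Sftpa1 in PATS-like cells stood at 4.87% to 6.80% of their AEC2 levels with normal FBs and at 3.01% to 3.51% with fibrogenic FBs. The low-depth cluster among PATS-like cells (65 and 232 barcodes, medians of 1285 and 1724.5 UMIs) and the deep one (201 and 275 barcodes, medians of 42946 and 42395 UMIs) both had low sums. In the deep cluster the fatty acid arm summed to 1678 and 1620 CPM and the cholesterol arm to 862 and 800 CPM, close to the class as a whole. In the low-depth cluster they summed to 717 and 1395 CPM and to 643 and 710 CPM. Fasn stood at 95.2 and 61.8 CPM in the deep cluster and at 37.4 and 56.6 CPM in the low-depth one. The low-depth values rest on few UMIs, and whether the direction of Fasn between the libraries differed between the clusters was not tested.

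Cycling epithelium, which carried the AEC2 markers together with cell cycle genes, stayed close to AEC2s in the cholesterol arm and in the median of all 35 genes. Its summed fatty acid arm lay lower, at log2 ratios of -0.60 with normal and -0.79 with fibrogenic FBs. The median over the 35 genes was -0.02 with normal and 0.10 with fibrogenic FBs, the fatty acid arm lying at -0.35 and -0.39 and the cholesterol arm at 0.17 and 0.22. Elovl6 was the member at least 2-fold higher in both (2.58- and 2.72-fold, from 89 and 42 UMIs; 5.33% and 6.13% of all genes tested were higher). With fibrogenic FBs Elovl1 was 2.05-fold lower (1.48% of all genes tested), and with normal FBs it was 1.80-fold lower and no member passed 2-fold downward (0.475%).

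Organoid FBs differed from AEC2s mostly in the fatty acid arm. There were 18 of 35 genes at least 2-fold lower in FBs with normal FBs (12.5% of all 17412 genes tested) and 16 with fibrogenic FBs (13.4% of 17554). Scd1 was 41.7- and 41.9-fold lower, Elovl1 33.7- and 26.1-fold lower and Fasn 20.1- and 22.9-fold lower. Elovl6 was higher in FBs, from 3418 and 3947 UMIs in FBs and 110 and 69 in AEC2s, and Hsd17b7 passed 2-fold upward with fibrogenic FBs only, at 39.3 against 16.8 CPM (log2 ratio 1.18, against 0.94 with normal FBs). These compare with 17.8% and 17.0% of all genes tested at least 2-fold higher.

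Fads1, Fads2 and Cyp51 were about level between FBs and AEC2s, while Elovl5 was lower in FBs, at 26.2 against 75.2 CPM and at 27.9 against 67.7 CPM. Fads1 and Fads2, the desaturases of polyunsaturated chains, stood at 84.7 and 68.1 CPM in FBs and 72.2 and 62.6 CPM in AEC2s with normal FBs. Cyp51, the lanosterol demethylase, stood at 136 and 137 CPM in FBs and 122 CPM in AEC2s of both libraries. Surfactant transcripts in FBs stood at 0.565% to 0.774% of AEC2 levels in the 2 libraries. At the highest such share in each library, RNA of AEC2s would amount to 27.5% and 32.6% of the Scd1 counted in FBs and to 13.5% and 18.1% of the Fasn.

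The study's own contrast in the organoids, fibrogenic against normal FBs, asks whether FBs from injured lung altered the cells grown with them. In AEC2s no member passed 2-fold in either direction (0.402% of all 15171 genes tested were at least 2-fold higher and 0.119% lower). The median log2 ratio over the 35 genes was -0.12, against 0.04 over all genes tested. Fasn had the highest, with 923 CPM with normal and 1260 CPM with fibrogenic FBs (log2 ratio 0.45, interval 0.43 to 0.47). Scd1 stood at 7547 and 8932 CPM (0.24) and Srebf1 at 51.9 and 65.4 CPM (0.33).

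In the cholesterol arm of AEC2s, no gene had a ratio above 0 and the median was -0.16. Fdps (farnesyl pyrophosphate synthase) lay lowest, at 713 and 561 CPM (log2 ratio -0.35, interval -0.37 to -0.32), followed by Pmvk at 303 and 241 CPM (-0.33). Cyp51 was level at 122 CPM in both. The sums of the arms over all AEC2s differed in opposite directions, 13170 and 14590 CPM for the fatty acid arm and 2154 and 1830 CPM for the cholesterol arm, by less than 2-fold each and with 1 library on each side. This opposition was not seen in every cluster of AEC2s.

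AEC2s of the 2 libraries came from different clusters in different shares. Of the 1177 AEC2s with normal FBs, 674 were in the cluster numbered 4, 379 in cluster 3 and 124 in the low-depth cluster 5, against 201, 553 and 505 of the 1259 with fibrogenic FBs. Within cluster 3 Fasn stood at 1161 and 1428 CPM, the fatty acid arm summed to 14800 and 15500 CPM (log2 ratio 0.07) and the cholesterol arm to 2053 and 1710 CPM, with all 16 genes lower. Within cluster 4 Fasn stood at 811 and 853 CPM, and the fatty acid arm (12430 and 12310 CPM) and the cholesterol arm (2206 and 2176 CPM, 7 of 16 genes lower) were both nearly level. In cluster 5, at medians of 2198 and 1933 UMIs per barcode, Fasn stood at 532 and 956 CPM and Scd1 at 4505 and 8758 CPM, and the arms summed to 8396 and 13620 CPM and to 2001 and 1672 CPM. The fatty acid difference was thus widest in the low-depth cluster, and both arms differed least in the cluster that held most AEC2s grown with normal FBs.

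**Figure D4:**
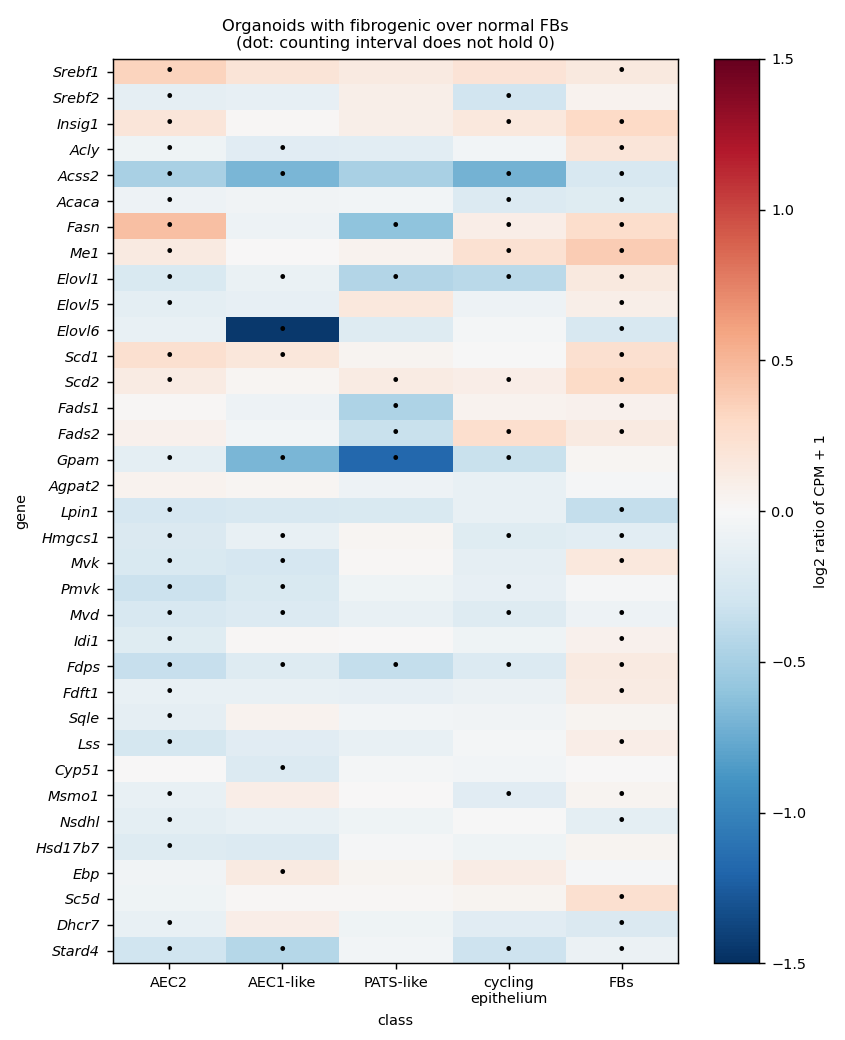
Log2 ratio of CPM + 1, fibrogenic over normal FBs, for each of the 35 genes (rows) in 5 organoid classes (columns), red for higher and blue for lower with fibrogenic FBs; a dot marks a ratio whose 95% counting interval does not hold 0. Colours are faint in nearly all cells, the exceptions being Elovl6 in AEC1-like cells (-1.45) and Gpam in PATS-like cells (-1.17).

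In the other classes 1 member passed 2-fold in AEC1-like cells and 1 in PATS-like cells, both downward, against 0.986% and 0.911% of all genes tested. None passed it upward (0.32% and 0.82%). Elovl6 stood at 3.82 CPM with normal and 0.765 CPM with fibrogenic FBs in AEC1-like cells, which is 34 UMIs against 5. In cluster 21, which held 55 and 155 of the AEC1-like barcodes, Elovl6 stood at 59.4 and 0 CPM, and in cluster 14, which held 220 and 173, at 2.42 and 0.817 CPM. Gpam stood at 11.4 and 4.49 CPM in PATS-like cells (112 and 60 UMIs, log2 ratio -1.17, interval -1.82 to -0.88). By cluster it stood at 11.5 and 4.503 CPM in the deep and at 0 and 4.19 CPM in the low-depth PATS-like cluster, the latter from few UMIs. Beside this, RNA of AEC2s at the highest surfactant share would amount to 55.6% and 65.9% of the Gpam counted, and AEC1 markers in PATS-like cells summed to 1683 and 3223 CPM; their part in the ratio was not tested. Both calls rest on few UMIs: neither gene had the 200 UMIs of a stricter minimum, and with 10 CPM added in place of 1 the log2 ratios were -0.36 for Elovl6 and -0.56 for Gpam, within 2-fold.

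No member passed 2-fold in cycling epithelium (0.679% of all genes tested higher, 0.415% lower) or in FBs (0.241% higher, 0.651% lower). The median over the 35 genes was -0.11 in AEC1-like cells, -0.04 in PATS-like cells, -0.06 in cycling epithelium and 0.05 in FBs. The AEC1-like clusters differed. In cluster 14 the fatty acid arm summed to 5511 and 5587 CPM and the cholesterol arm to 2034 and 1895 CPM. In the low-depth cluster 21 they summed to 5686 and 8730 CPM and to 1484 and 1888 CPM. Sftpc stood at 33920 and 33200 CPM in cluster 14 and at 12700 and 41760 CPM in cluster 21. The part of AEC2 RNA in these sums was not tested. Acss2 lay below 0 in all 5 classes, with log2 ratios of -0.49 in AEC2s, -0.69 in AEC1-like cells, -0.49 in PATS-like cells, -0.70 in cycling epithelium and -0.24 in FBs. In PATS-like cells the interval held 0 (36 and 31 UMIs), and in the low-depth AEC2 cluster 5 Acss2 ran the other way, at 8.76 and 14.2 CPM. The cluster 5 values rest on few UMIs, and their direction was not tested. In FBs Me1 had the highest ratio, at 47.2 and 61.9 CPM, and Lpin1, a phosphatidate phosphatase, the lowest, at 34.6 and 26.9 CPM.

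In lung FBs sorted straight from PBS- and bleomycin-treated mice, the fatty acid arm summed to 506 and 598 CPM in the single-dose experiment and to 626 and 693 CPM in the repetitive one. The cholesterol arm summed to 430.0 and 447 CPM and to 403 and 419 CPM. Organoid and lung levels come from separate experiments and tables and are not compared. The FBs numbered 901 with PBS and 822 with bleomycin after the single dose, and 5297 and 6567 in the repetitive experiment. AEC2 markers in them summed to 43.1 to 150.1 CPM and FB markers to 26770 to 71000 CPM.

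After the single dose 2 of 35 genes were at least 2-fold higher with bleomycin (9.38% of all 12070 genes tested) and 1 was lower (3.74%), so members past 2-fold were about as frequent as among all genes. Elovl6 stood at 6.49 and 16.1 CPM with PBS and bleomycin (2.28-fold higher), Cyp51 at 13.8 and 29.5 CPM (2.06-fold higher) and Insig1 at 72.8 and 35.2 CPM (2.04-fold lower). In the repetitive experiment Elovl6 stood at 16.2 and 21.8 CPM, Cyp51 at 21.7 and 33.5 CPM and Insig1 at 50.2 and 30.1 CPM, each in the same direction and within 2-fold. There 1 member, Sc5d, was at least 2-fold lower (1.63% of all 17065 genes tested) and none was higher (5.77%).

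Sc5d, which encodes lathosterol oxidase, had like values in both experiments. It stood at 92.2 with PBS and 46.5 CPM with bleomycin after the single dose (log2 ratio -0.98, interval -1.17 to -0.81), and at 88.8 and 42.4 CPM after repetitive dosing (log2 ratio -1.05). Sqle (squalene epoxidase) stood at 11.2 and 21.4 CPM and at 7.55 and 13.9 CPM, Ebp at 45.1 and 73.1 CPM and at 48.8 and 78.6 CPM, and Me1 at 23.6 and 33.1 CPM and at 18.7 and 34.6 CPM. Steps of the same sterol pathway thus lay on both sides of 0 in both experiments. The median over the 35 genes was 0.20 after the single dose and 0.08 after repetitive dosing, against 0.09 and 0.10 over all genes tested.

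**Figure D5:**
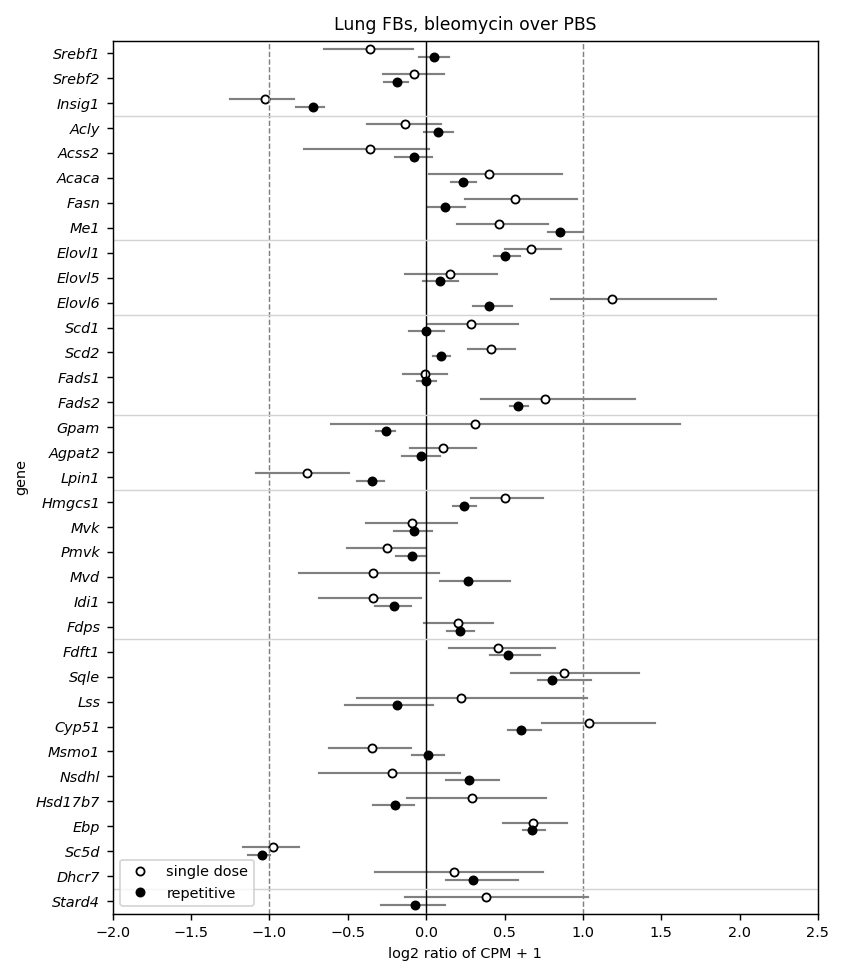
Log2 ratio of CPM + 1, bleomycin over PBS, for each of the 35 genes in lung FBs, grouped by role; open points are the single-dose and filled points the repetitive experiment, grey lines 95% counting intervals of the ratio, and dashed lines 2-fold. Sc5d and Insig1 lie furthest left in both experiments, and Sqle, Ebp, Cyp51 and Me1 lie right of 0.

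The makeup of the FBs differed between the libraries, and its part in the ratios above was not tested. MatrixFB-like cells were 68 of 901 and 158 of 822 FBs in the single-dose experiment. In the repetitive one they were 604 of 5297 and 2386 of 6567. MyoFB-like cells numbered 1, 88, 0 and 534, and LipoFB-like cells 373, 12, 1197 and 27. LipoFB-like names clusters with at least 50% of the LipoFB markers at least 2-fold above the other FBs. Other FBs can carry these markers at lower levels, so the counts do not measure loss of LipoFBs. The study names LipoFB clusters in both PBS and bleomycin lungs. Without the MatrixFB-like, MyoFB-like, mesothelial-like, smooth muscle-like and cycling clusters, Sc5d stood at 97.2 and 54.3 CPM after the single dose. It stood at 94.7 and 49.7 CPM after repetitive dosing (log2 ratio -0.92), within 2-fold and so no longer counted as lower. These remaining FBs still hold the LipoFB-like cells, so the shift in their share stays in this comparison. Cyp51 stood at 14.9 and 23.9 CPM in these remaining FBs after the single dose (log2 ratio 0.65, within 2-fold). Within MatrixFB-like cells Sc5d was low with PBS already, at 29.3 and 23.5 CPM and at 25.9 and 25.2 CPM, while in LipoFB-like cells of PBS lungs it stood at 113 and 114 CPM.

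MatrixFB-like cells were also set against LipoFB-like cells in PBS lungs, since lipid storage marks the latter. The median log2 ratio over the 35 genes was -0.74 after the single PBS dose and -0.67 after repetitive PBS, against -0.16 and -0.17 over all genes tested. Genes at least 2-fold lower in MatrixFB-like cells numbered 10 in the single-dose experiment (17.3% of all 8265 genes tested) and 6 in the repetitive one (13.8% of 12797). Sc5d and Pmvk were on both lists. The single-dose MatrixFB-like cells rest on 68 barcodes, and 31 of the 35 genes had the 20 UMIs needed to be counted there. Members on that list can have few UMIs in the MatrixFB-like cells. Cyp51 (log2 ratio -4.22) had none there, and reached the 20 UMIs needed through the LipoFB-like cells alone.

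Scd1 ran strongly the other way, at 4.42 CPM in LipoFB-like and 65.9 CPM in MatrixFB-like cells after the single PBS dose (12.3-fold higher, 9 and 27 UMIs) and at 4.44 and 54.2 CPM after repetitive PBS (10.2-fold higher, 49 and 256 UMIs). Me1 stood at 14.2 and 48.8 CPM and at 11.6 and 26.1 CPM. These were the 2 members at least 2-fold higher in MatrixFB-like cells, and they were so in both experiments (8.26% and 11.7% of all genes tested). Scd2 did not follow Scd1, at 88.4 and 80.5 CPM and at 114 and 88.8 CPM.

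Within MatrixFB-like cells, bleomycin against PBS gave Insig1 at 97.6 and 28.7 CPM after the single dose (40 and 33 UMIs) and at 31.4 and 34.0 CPM after repetitive dosing. Insig1 and Msmo1 were the 2 members at least 2-fold lower after the single dose (4.11% of all 7005 genes tested), where 21 of the 35 genes had the 20 UMIs needed. Cyp51 was counted as higher there (8.48%), at 19.2 CPM with bleomycin and with no UMI of it in the PBS library. In that PBS class 3 UMIs would be 7.32 CPM. Cyp51 reached the 20 UMIs needed through the bleomycin library alone. After repetitive dosing Elovl6 (7.84 and 17.3 CPM) and Gpam (22.0 and 51.6 CPM) were at least 2-fold higher (3.87% of all 12875) and none was lower (1.56%).

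MyoFB-like cells, present in bleomycin lungs, were compared with the remaining FBs of the same library. The single-dose MyoFB-like cluster also had 5 cycling markers raised, the repetitive one 0, and the remaining FBs hold no cycling cluster, so cell cycle and MyoFB state cannot be told apart in the single-dose values. Cyp51 stood at 56.5 against 23.9 CPM after the single dose (2.31-fold higher; 6.77% of all 11196 genes tested were higher) and at 67.8 against 34.96 CPM after repetitive dosing (log2 ratio 0.94, where no member passed 2-fold upward and 4.53% of all 14835 genes did). Gpam was at least 2-fold lower after repetitive dosing, at 22.6 against 87.1 CPM. It was counted as lower after the single dose too, at 0.982 against 3.31 CPM (2 and 23 UMIs). In that MyoFB-like class 3 UMIs would be 1.47 CPM. Gpam reached the minimum number of UMIs there through the remaining FBs alone, so the single-dose call is not read as a repeat. Acss2 and Dhcr7 were also lower after the single dose and Elovl5 after repetitive dosing (8.05% and 5.72% of all genes tested). Ebp stood at 89.4 against 75.3 CPM and at 131 against 75.6 CPM. The median of the fatty acid arm was -0.29 and -0.34 and that of the cholesterol arm 0.13 and 0.03.

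A list of 42 related genes of the same pathways was measured beside the members, 41 of them in the single-dose tables. In AEC1-like cells 8 of them were at least 2-fold lower than in AEC2s with normal FBs and 9 with fibrogenic FBs (5.98% and 7.24% of all genes tested), and 2 were higher in both (9.23% and 7.37%). Those lower included Acacb, the mitochondrion-associated form of acetyl-CoA carboxylase, at 6.63 against 31.1 CPM in AEC2s and at 6.58 against 24.7 CPM. The acyl-CoA synthetase gene Acsl4 was among them, at 198 against 679 CPM and at 197 against 594 CPM. Abca1, the cholesterol exporter, was higher, at 32.9 against 1.96 CPM in AEC2s and at 40.7 against 3.90 CPM. The desaturase family gene Fads3 was also higher, at 234 against 58.5 CPM and at 209.9 against 58.0 CPM.

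In PATS-like cells 13 and 14 of the 42 related genes were at least 2-fold lower (8.49% and 9.21% of all genes tested) and 3 were higher in each library (16.4% and 14.2%). Lpcat1, the acyltransferase that remodels surfactant phosphatidylcholine, was lower, at 113 against 820 CPM in AEC2s and at 111 against 880 CPM. Soat1, which esterifies cholesterol, was also lower, at 34.5 against 311 CPM and at 29.2 against 340 CPM. In AEC2s none of the related genes passed 2-fold between fibrogenic and normal FBs (0.402% of all genes tested were higher and 0.119% lower). In PATS-like cells Acacb was at least 2-fold lower with fibrogenic FBs (log2 ratio -1.10, against 0.911% of all genes tested). Acacb was low in these cells, with a log2 ratio of -3.60 against AEC2s with fibrogenic FBs. The part of AEC2 RNA and of low counts in its call was not tested. No related gene passed 2-fold in AEC1-like cells, cycling epithelium or organoid FBs. In lung FBs 4 related genes were at least 2-fold higher with bleomycin after the single dose (Aacs, Thrsp, Fads3 and Acsl4; 9.38% of all genes tested) and 3 lower (Mid1ip1, Dgat2 and Chpt1; 3.74%), and after repetitive dosing none was higher (5.77%) and Dgat2 was lower (1.63%). Dgat2, which completes triglyceride synthesis, thus passed 2-fold in both experiments, at 17.8 and 6.19 CPM and at 7.57 and 2.17 CPM.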

How the data were processed

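Single-cell RNA-Seq was performed by the authors with 10x Genomics 3′ chemistry on 6 libraries of FACS-sorted or organoid cells, and per the labels reads were processed with Cell Ranger 3.0.1 and Seurat 3 on mm10. The deposited files hold raw UMI counts per gene and barcode, 1 table per library. The study's methods name the Gencode M17 annotation. The single-dose tables hold fewer gene rows than the others, and whether the same annotation served all tables is not given in the sources used here. Reads falling equally on near-identical genes are not part of such counts by the usual setting of this counter, but that setting is not stated.

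Samples were grouped by their labels. Cells of each experiment were clustered (2000 variable genes, 30 principal components, 20 neighbours, Leiden at resolution 1 in igraph 0.11.9), without the 35 genes, the 42 related genes and mitochondrial genes, and clusters were named from marker lists. Barcodes whose share of mitochondrial or erythrocyte UMIs lay over 3 scaled median absolute deviations above their cluster's median were removed, as were clusters with a mean share above 25% mitochondrial or 0.5% erythrocyte UMIs (36 to 865 barcodes per library in all), and clusters that could not be named (0 to 1715 barcodes) were not used. UMIs were summed per class and library over the gene rows of both tables of an experiment and expressed as CPM of the deposited counts, with exact Poisson intervals and, for ratios, Clopper-Pearson intervals at 95%. Genes with at least 20 UMIs over both sides were counted, and called at 2-fold after adding 1 CPM. With 1 library per condition no test was made. PCR copies are collapsed by UMIs, and intervals cover counting error only. Scripts used Python 3.11.15, numpy 2.4.6, scipy 1.17.1, scikit-learn 1.9.0 and scanpy 1.11.5 (for the doublet caller Scrublet), and were tested on simulated data.

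Genes were named where they passed 2-fold in a comparison or were the highest or lowest of their role. Other genes were named for level or contrast after their values were seen. The members and lists were chosen with earlier results of these data known. Alternatives covered clustering resolution, clustering with the 35 genes kept, the barcode filters, minimum UMIs, the added CPM, centring on all genes, per-cell means and the remaining FBs. Promoter windows came from RefSeq (GRCm38.p6). Scd1, Scd2, Fads1, Fdps, Fdft1, Stard4 and Sqle had no window in the promoter list used, and protein sequences were not used here.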

Additional observations from a re-analysis of the deposited data

Results flagged for a closer look

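With fibrogenic against normal FBs, Fasn had log2 ratios on opposite sides of 0 in different organoid classes. It was 0.45 in AEC2s, 0.10 in cycling epithelium and 0.26 in FBs but -0.61 in PATS-like cells. The ratio in AEC2s exceeded that in PATS-like cells by 1.06 on the log2 scale, and the ratio in PATS-like cells differed from that in cycling epithelium by -0.71 and from that in FBs by -0.87. The counting intervals lay on opposite sides of 0 in each of these pairs. Within PATS-like cells the ratio was -0.61 in the deep cluster and 0.59 in the low-depth cluster (37.4 and 56.6 CPM). The low-depth ratio rests on few UMIs, from 65 and 232 barcodes at medians of 1285 and 1724.5 UMIs. Beside this, Sftpc, Sftpb and Sftpa1 stood at 4.87% to 6.80% of their AEC2 levels in PATS-like cells with normal FBs and at 3.01% to 3.51% with fibrogenic FBs. With 1 library per condition these differences were not tested, and the part of AEC2 RNA in them was not tested.

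Other fatty acid genes showed the same kind of opposition by smaller amounts. Elovl1 had a ratio of -0.44 in PATS-like cells and -0.41 in cycling epithelium against 0.14 in FBs, differences of -0.58 and -0.55. Fads1 had -0.46 in PATS-like cells against 0.06 in FBs (-0.52), and Fads2 -0.33 in PATS-like cells against 0.25 in cycling epithelium (-0.58). None of these differences was tested. In all, there were 25 cases in which a gene had intervals on opposite sides of 0 in a pair of comparisons, each gene and pair counted once, and in 8 of them the ratios differed by at least 0.5.

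Elovl6 in AEC1-like cells over AEC2s was 0.59 with normal FBs and -0.75 with fibrogenic FBs, a difference of 1.34. It rests on 34 and 5 UMIs in AEC1-like cells and was not tested.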

How the results depend on the processing

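No paired analysis was possible because each condition has 1 library and no value comes from a test. Depth limits genes with few UMIs: with a minimum of 200 UMIs in place of 20, the members past 2-fold between fibrogenic and normal FBs numbered 0 in AEC1-like and 0 in PATS-like cells, against 1 each. The median of the 35 genes between fibrogenic and normal organoid FBs was -0.002 with the mean of per-cell CPM (0.047 as reported). Centred on the median of all genes tested, the median between bleomycin and PBS was -0.023 in repetitive-dose lung FBs (0.077 as reported), and that of AEC1-like cells over AEC2s with normal FBs was -0.196 (-0.065 as reported). Neither of these medians is a call. The medians of each arm below were recomputed as an alternative chosen after seeing the data. Centring gave, for AEC1-like over AEC2, 0.147 with normal FBs and 0.202 with fibrogenic FBs in the cholesterol arm and -1.221 with fibrogenic FBs in the fatty acid arm. For PATS-like over AEC2 it gave -1.612 and -1.373 in the cholesterol arm and -2.102 with fibrogenic FBs in the fatty acid arm. Adding 10 CPM in place of 1 gave -0.691 and -0.738 for the fatty acid arm of AEC1-like cells, -1.648 and -1.722 for that of PATS-like cells, and -1.092 and -1.03 for the cholesterol arm of PATS-like cells. Per-cell means gave -0.684 and -0.988 for the fatty acid arm of AEC1-like cells and -2.113 for that of PATS-like cells with fibrogenic FBs, and a minimum of 200 UMIs gave -2.091 there. No called value changed its direction, but a call can be lost without that. With 10 CPM added, Elovl6 in AEC1-like and Gpam in PATS-like cells fell within 2-fold between fibrogenic and normal FBs. Calls near the limit are not to be read as stable under it. Among them are those of Elovl6, Cyp51, Insig1 and Sc5d in lung FBs and of Hsd17b7 in AEC1-like cells. Of the values recomputed for single genes under the alternatives, 193 moved by less than their counting interval and 39 by more, and of the medians and counts 193 stayed and 21 moved.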

Other observations

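Among the GFP+ sorted cells of the repetitive experiment, 25 barcodes with PBS and 10 with bleomycin carried the AEC2 markers and took no part in the comparisons above. In them the fatty acid arm summed to 7751 and 9412 CPM and the cholesterol arm to 1259 and 899 CPM, against 626 and 693 CPM and 403 and 419 CPM in lung FBs of the same libraries. These values rest on few barcodes.

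Both arms varied widely from cell to cell. Among AEC2s of at least 2000 UMIs with normal FBs (1120 cells), the fatty acid arm ran from 6467 CPM at the 10th percentile to 12650 at the median and 20220 at the 90th, and with fibrogenic FBs (994 cells) from 7395 to 13900 and 21780 CPM. The cholesterol arm ran from 1208 to 2048 and 3131 CPM and from 859 to 1720 and 2731 CPM. Across these cells the Spearman rho between the arms was 0.23 and 0.18, and across organoid FBs (1923 and 2058 cells) 0.46 and 0.42. The cells of a library share its depth and free RNA, so these are descriptions.

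Levels of some members differed between the PBS libraries of the lung experiments, which were counted in separate tables. Gpam stood at 1.83 CPM in FBs of the single-dose and 86.5 CPM of the repetitive PBS library, Fads2 at 7.99 and 71.0 CPM and Acaca at 11.3 and 43.7 CPM. Annotation, chemistry and handling of the experiments cannot be told apart here.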
